A study of Homo sapiens with 4 samples.

Results

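The SSX, SPANX and NY-ESO-1 antigen genes are X-linked cancer-testis genes, and 10 of them were followed: SSX1, SSX2, SSX3, SSX4, SPANXA1, SPANXB1, SPANXC, SPANXD, CTAG1B (which encodes NY-ESO-1) and CTAG2 (which encodes LAGE-1). Their probes were found through the RefSeq accession that the array design gives each gene probe. The accessions led to 9 probes for 7 of the 10 genes, out of 58201 gene probes on the array, of which 34888 were named for 25002 genes. SSX1, SPANXA1, SPANXB1, SPANXC and CTAG2 had 1 probe each, and SSX2 and SSX3 had 2 each. No probe mapped to SSX4, CTAG1B or SPANXD. The probes for the near-identical copies of SSX4 and CTAG1B carry the names SSX4B and CTAG1A and are described as relatives. Transcripts of such copies can hybridize to the same probe, so a probe named for 1 copy may also report the other.

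The cells were HML58-3, a derivative of the HCT116 colon cancer cell line that carries a reporter gene under a methylated promoter, grown in McCoy's 5A medium with 10% serum. They were treated with mock, with decitabine (DAC), a deoxycytidine analogue that traps DNA methyltransferases, or with its prodrugs OR-2003 or OR-2100. Each drug was given at 1 μM on day 1 and RNA was taken on day 5. Each condition was 1 array of 1 line, so the conditions could not be tested against a spread between replicates, and p-values are absent.

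Cancer-testis genes are active in testicular germ cells and silent in most other adult tissues, and many tumors express them. DNA methylation of their promoters is a known layer of this silencing, and inhibitors of DNA methyltransferases are known to reactivate members of the class. SSX proteins are nuclear repressors that act with polycomb group proteins, and SSX1, SSX2 and SSX4 form the fusions with SS18 that define synovial sarcoma. SPANX proteins are found on the nucleus of sperm. NY-ESO-1 and LAGE-1 are closely related antigens that T cells and antibodies of cancer patients recognize.

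The promoters are shown because the drugs act on DNA methylation, which in human cells lies mainly at CpG. RefSeq promoters of GRCh38.p14 were given for SSX1, SSX2, SSX4, SPANXA1, SPANXB1, SPANXC and SPANXD, 7 of the 10 genes. SSX3, CTAG1B and CTAG2 are named only. The 250 bases before the start are printed below 5′ to 3′ for SSX1 (chrX:48255142-48255391 on the plus strand), the second of the 2 listed starts of SSX2 (chrX:52707179-52707428 on the minus strand) and SSX4 (chrX:48383289-48383538 on the plus strand). They are followed by SPANXA1 (chrX:141584739-141584988 on the minus strand), SPANXB1 (chrX:141002344-141002593 on the plus strand), and, for contrast, the relatives SPANXN1 (chrX:145247253-145247502 on the plus strand) and SPANXN2 (chrX:143720753-143721002 on the minus strand). Capitals mark each CpG.
SSX1: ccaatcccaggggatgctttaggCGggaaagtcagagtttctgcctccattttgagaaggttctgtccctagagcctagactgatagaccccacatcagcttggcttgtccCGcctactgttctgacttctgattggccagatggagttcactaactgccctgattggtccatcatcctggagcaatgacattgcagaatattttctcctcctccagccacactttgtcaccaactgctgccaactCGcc
SSX2 start 2: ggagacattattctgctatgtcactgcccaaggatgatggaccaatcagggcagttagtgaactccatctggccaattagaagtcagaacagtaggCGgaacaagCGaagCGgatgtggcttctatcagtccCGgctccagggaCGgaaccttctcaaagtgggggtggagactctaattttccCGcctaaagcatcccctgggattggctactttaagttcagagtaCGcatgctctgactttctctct
SSX4: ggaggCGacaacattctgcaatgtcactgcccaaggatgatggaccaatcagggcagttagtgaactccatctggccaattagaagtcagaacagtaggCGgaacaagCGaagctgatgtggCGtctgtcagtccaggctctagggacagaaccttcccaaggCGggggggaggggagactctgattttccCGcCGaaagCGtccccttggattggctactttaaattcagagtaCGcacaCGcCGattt
SPANXA1: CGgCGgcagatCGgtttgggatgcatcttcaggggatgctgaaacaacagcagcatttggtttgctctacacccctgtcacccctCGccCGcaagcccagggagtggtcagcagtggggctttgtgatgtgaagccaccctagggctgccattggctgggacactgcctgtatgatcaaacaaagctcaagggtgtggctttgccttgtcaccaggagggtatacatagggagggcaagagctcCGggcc
SPANXB1: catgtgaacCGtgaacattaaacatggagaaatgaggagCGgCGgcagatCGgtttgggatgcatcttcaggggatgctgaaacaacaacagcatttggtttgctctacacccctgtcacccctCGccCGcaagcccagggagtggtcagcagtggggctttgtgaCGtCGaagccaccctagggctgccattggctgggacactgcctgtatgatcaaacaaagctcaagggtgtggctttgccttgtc
SPANXN1: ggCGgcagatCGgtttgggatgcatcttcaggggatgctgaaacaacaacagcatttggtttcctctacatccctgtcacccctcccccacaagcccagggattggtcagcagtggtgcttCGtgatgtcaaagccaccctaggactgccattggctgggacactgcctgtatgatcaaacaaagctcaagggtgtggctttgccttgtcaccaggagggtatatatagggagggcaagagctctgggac
SPANXN2: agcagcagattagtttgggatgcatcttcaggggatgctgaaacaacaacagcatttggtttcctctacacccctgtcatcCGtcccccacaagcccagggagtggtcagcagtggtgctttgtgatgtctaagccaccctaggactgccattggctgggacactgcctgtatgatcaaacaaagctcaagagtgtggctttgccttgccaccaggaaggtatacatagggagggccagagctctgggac

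The windows of the members held 3 to 11 CpG. SSX1 had 3, SSX2 had 7 at both starts, and SSX4 had 11. SPANXA1 and SPANXC had 6 each, SPANXB1 had 8 and SPANXD had 4. Over 35116 RefSeq promoters cut to the same 250 bases, the median was 11 CpG and the quartiles were 3 and 23, so none of the 7 genes lay above the median. LAGE3, a relative of the NY-ESO-1 genes that is expressed in most tissues, had 17.

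The windows of SPANXA1, SPANXB1 and SPANXC were close to identical, and that of SPANXD was not, since it aligned with SPANXA1 over 30 bases only, at 73.3%. SPANXA1 and SPANXC matched at 98.8% of 250 aligned bases, and SPANXA1 and SPANXB1 at 98.6% of 211. The SPANXN relatives were also similar, with SPANXA1 matching SPANXN1 at 94.8% of 248 aligned bases and SPANXN2 at 92.7% of 247. They held fewer CpG, with 3 in SPANXN1, 1 in SPANXN2, 4 in SPANXN3 and 1 in SPANXN5. The adjacent pair of CpG at -165 and -161 of SPANXA1 and SPANXC, which lies at -126 and -122 of SPANXB1, had no counterpart in these 4 windows. The motif TTTCCCGC, a core of sites for E2F factors, was searched on both strands after the sequences had been read. It stood once in SSX1, SSX2 and SSX4 and in the relatives SSX2B and SSX5, and in 1.39% of all promoters. The windows of the relatives SSX4B and SSX7 did not hold it. The windows of SSX2 (start 2) and SSX4 matched at 88.7% of 247 aligned bases, so matches in such copies are not separate finds. CCAAT, searched likewise, was in every SSX and SPANX window and in 32.0% of all promoters. A match is a string of letters in these windows and not a measured site.

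The arrays were alike in faulty and saturated spots for these genes, but not in the spike-in slope. Of the gene probes, 31601 were well above background with mock and 32443 to 33282 with the drugs. No gene spot was saturated, and no spot of a member or relative had been marked as faulty. The spike-in slope of the scanner software was 0.899 on the mock array, which the software set out of range, and 0.913 to 0.955 on the others. The part of this slope in the results was not tested. Colon epithelial markers fixed with the lists were well above background for 9 of 11 genes with mock and 10 of 11 with each drug, and their summed linear level was 1349 to 1702 times the 75th percentile of an array. LGR5, a marker of intestinal stem cells, was not above background on any array, and VIL1, which encodes villin, was not with mock. Markers of leukocytes, fibroblasts, endothelium and testis cells summed to 9.94 with mock and 22.0 to 22.4 with the drugs, and 8 of 16 were above background with mock and 14 to 15 with the drugs. COL3A1 was not above background on any array. The part of this difference in the results below was not tested, and in RNA of a whole culture a change in the number of expressing cells and in the RNA per cell cannot be told apart.

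Values are log2 levels, scaled so that the 75th percentile of an array's gene probes is 0, and sets of 3 values with the drugs are given in the order DAC, OR-2003, OR-2100. Following the study's own rule, induced means at least 2-fold above mock together with a level of -1 or higher with the drug. Each drug induced 8 of the 9 member probes, and the same 8 with all of them. Over all gene probes the induced share was 3.44%, 3.53% and 3.50% in the order DAC, OR-2003, OR-2100, and 3.13% for all 3 together. By genes, 7 of 7 members with a probe were induced by each drug, against 6.33%, 6.45% and 6.38% of all named genes, and against 5.77% for all 3 drugs. When the 75th percentile was taken over probes well above background only, which lowers all levels, 4, 3 and 3 of the 9 probes were counted. Of all 58201 gene probes, 1062, 1078 and 1103 were counted in that setting, against 2000, 2052 and 2038 in the main one. The median difference from mock over the 9 probes was 5.41 with DAC, 5.17 with OR-2003 and 5.04 with OR-2100 on the log2 scale, while that over all gene probes was -0.13, -0.10 and -0.25.

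With mock, 6 of the 9 probes were not well above background and none reached -1. All 9 were well above background with each drug. For the 6, the fold is a lower bound under the main background correction only. It is set against the higher of the probe's own mock signal and the lowest signal well above background on the mock array (log2 -4.29). With normexp, another correction, the differences of all 6 fell below these bounds. For DAC, log2 bounds of 6.24, 5.41, 3.98, 5.45, 5.44 and 1.70 stood against normexp values of 3.58, 2.74, 1.53, 2.90, 2.87 and 0.24. The order is SPANXA1, SPANXC, SPANXB1, SSX1, SSX3 A_23_P114134 and SSX2 A_23_P252023.

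**Figure D1:**
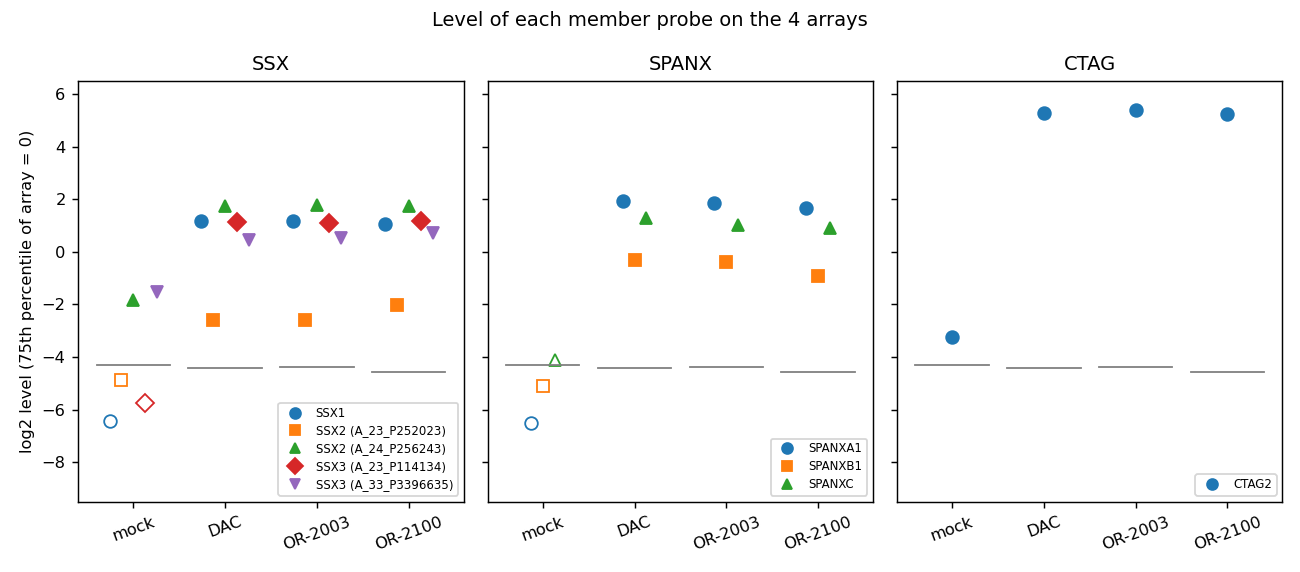
Levels of the 9 member probes (y axis, log2 with the 75th percentile of each array at 0) on the mock, DAC, OR-2003 and OR-2100 arrays (x axis), by family. Filled symbols are well above background, open symbols are not, and grey lines are the background limit of each array. Every probe is lower with mock than with any drug, and the SSX2 probe A_23_P252023 alone stays under -1 with the drugs.

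CTAG2 had the largest difference among the 3 member probes that were above background on all 4 arrays. Its level was -3.22 with mock, 5.29 with DAC, 5.39 with OR-2003 and 5.24 with OR-2100. The drugs were thus 365-fold, 393-fold and 352-fold above mock, and they lay within 0.16 of each other on the log2 scale. The size depends on the background correction, since the log2 differences of 8.51, 8.62 and 8.46 were 6.26, 6.42 and 6.21 with normexp correction. The relative CTAG1A, the near-identical copy of CTAG1B, was at -1.91 with mock and at 7.21, 7.36 and 7.21 with the drugs. These are log2 differences of 9.12, 9.26 and 9.12 for the probe named for CTAG1A. Whether this probe also reports CTAG1B, which likewise encodes NY-ESO-1, was not checked. LAGE3, the third gene of this family and a subunit of the KEOPS complex that modifies transfer RNA, was at 5.28 with mock and at 5.27, 5.25 and 5.27 with the drugs.

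The SPANX genes were not above background with mock. SPANXA1 was at -6.51 with mock and at 1.95 with DAC, 1.87 with OR-2003 and 1.67 with OR-2100, which is at least 75.4-fold, 71.1-fold and 62.0-fold higher. SPANXC was at -4.13 with mock and at 1.28, 1.04 and 0.91 with the drugs, at least 42.5-fold, 35.9-fold and 32.8-fold higher. SPANXB1 was at -5.11 with mock and at -0.31, -0.40 and -0.90 with the drugs, at least 15.8-fold, 14.8-fold and 10.4-fold higher. For all 3 probes the 3 drug arrays lay far above the mock array, and the levels ran from DAC down to OR-2100.

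The SPANXN relatives, a branch of the same family, were not induced. SPANXN1, SPANXN3 and SPANXN4 were not above background on any array. SPANXN2 was above background on all 4, at -3.77 with mock and at -3.02, -3.55 and -3.31 with the drugs. SPANXN5 was at -5.03 with mock and at -4.29, -3.87 and -4.65 with the drugs, above background with DAC and OR-2003. The windows of SPANXN1, SPANXN2, SPANXN3 and SPANXN5 described above held 1 to 4 CpG, and that of SSX1, which was induced, held 3. A part of the CpG number in induction was not tested.

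SSX1 was at -6.42 with mock and at 1.16, 1.18 and 1.06 with the drugs, at least 43.7-fold, 44.3-fold and 40.7-fold higher. Its probe was not above background with mock, so these folds are bounds under the main background correction only.

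The probes of SSX2 differed. A_24_P256243 was above background on all arrays, at -1.84 with mock and at 1.75, 1.78 and 1.76 with the drugs, which is 12.1-fold, 12.3-fold and 12.2-fold. With normexp its log2 differences of 3.59, 3.62 and 3.61 were 2.67, 2.70 and 2.65. A_23_P252023 was not well above background with mock, at -4.87, and was at -2.58, -2.59 and -2.04, at least 3.25-fold, 3.25-fold and 4.75-fold higher. It was the 1 member probe that did not reach the level counted as induced. Which transcripts or copies each probe binds was not analysed here.

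SSX3 also had 2 probes that differed. A_23_P114134 was at -5.76 with mock and at 1.16, 1.11 and 1.19 with the drugs, at least 43.4-fold, 42.1-fold and 44.4-fold higher. A_33_P3396635 was above background with mock, at -1.51, and was at 0.46, 0.52 and 0.72 with the drugs, 3.91-fold, 4.09-fold and 4.71-fold higher. With normexp its log2 differences of 1.97, 2.03 and 2.23 were 1.17, 1.18 and 1.40. Both were induced by each drug.

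Of the SSX relatives, SSX4B stands for SSX4, with which it shares all 177 aligned bases of the promoter windows. Its probe A_23_P33875 was at -6.41 with mock and at 0.46, 0.54 and 0.40 with the drugs. Its probe A_23_P33881 was at -5.29 and at 1.49, 1.49 and 1.56. The pseudogene SSX8P was at -6.51 with mock and at -0.23, -0.09 and -0.16 with the drugs. SSX7 had a probe (A_23_P374226) at -6.46 with mock and at -0.09, -0.23 and -0.18 with the drugs, and a probe (A_23_P396115) at -3.84 and at -0.77, -1.03 and -1.24. SSX5 was at -2.97 with mock and at -1.33, -1.79 and -1.70 with the drugs, under the level of an induced probe. In all, 4 of the 11 relatives on the array (CTAG1A, SSX4B, SSX7 and SSX8P) were induced by each drug.

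**Figure D2:**
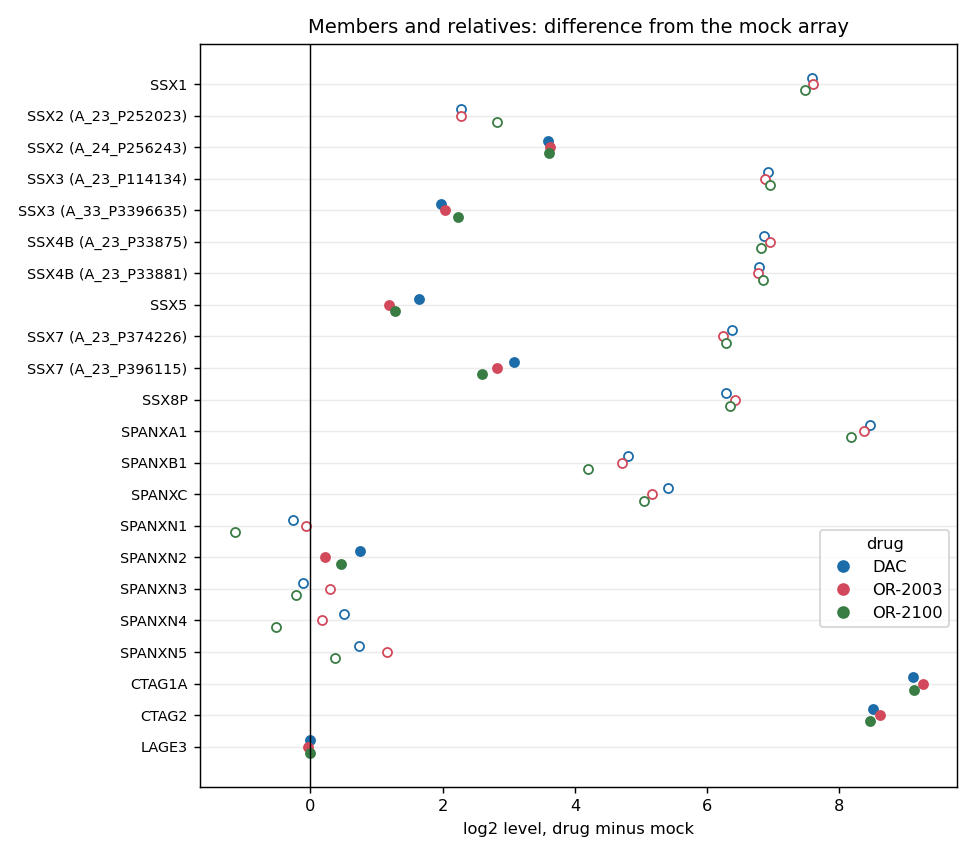
Log2 difference from mock (x axis) of each probe of the members and their relatives (y axis) with DAC, OR-2003 and OR-2100. Filled points had a mock signal well above background, and open points did not, so that their difference rests on a mock value in the background. SSX, SPANXA1, SPANXB1, SPANXC, CTAG1A and CTAG2 probes lie right of 1, while SPANXN and LAGE3 probes lie near 0, between -1.15 and 1.16.

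Genes for proteins with which SSX proteins act were measured on the same arrays, and none of the 9 was induced. Since 6.33% to 6.45% of all named genes were induced, this count among 9 genes says little. SS18, the chromatin remodeling subunit that is fused with SSX in synovial sarcoma, was at 1.93 with mock and at 1.51, 1.58 and 1.50 with the drugs. Its paralog SS18L1 was at 0.64 with mock and at 0.23, 0.17 and 0.09 with the drugs. Among polycomb genes, PCGF1 went from 2.77 with mock to 1.65, 1.60 and 1.68, while RING1 was at 2.70 and at 2.49, 2.59 and 2.62. PCGF3 was at -0.79 with mock and at -1.25, -1.20 and -1.30 with the drugs. BMI1 and KDM2B had 2 probes each, all higher with every drug than with mock by 0.15 to 0.69. The RNF2 probes ran opposite ways, by 0.86 to 0.97 upward for A_23_P85543 and with differences of -0.16 to -0.32 for A_24_P199500. So did those of SSX2IP, whose product binds SSX2, since A_23_P201376 was at 0.87 with mock and at -1.13, -1.32 and -1.40 with the drugs, and A_33_P3285809 was at 0.36 and at 0.63, 0.65 and 0.59.

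Other cancer-testis genes were set beside the members. Of 38 other X-linked genes of the class on the array, DAC induced 25, OR-2003 25 and OR-2100 24, and their median differences from mock were 3.78, 3.77 and 3.90. XAGE1A was at -5.55 with mock and at 7.94, 7.95 and 7.88 with the drugs, MAGEA8 at -6.47 and at 3.63, 3.50 and 3.59, and CT45A1 at -4.25 and at 5.57, 5.70 and 5.56. Of 35 autosomal genes, each drug induced 14, with medians of 0.49, 0.86 and 0.34. MAEL and TDRD1, which act in the piRNA pathway of germ cells, and LY6K led them, at least 110-fold, at least 68.0-fold and 306-fold above mock with DAC.

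Of 41 genes of spermatids, where SPANX proteins are also made, each drug induced 1, or 2.44%. Among all named genes the share was 6.33%, 6.45% and 6.38%, so a low count in a list of this size says little about spermatid genes. The induced gene was TEKT2, which encodes a tektin of the sperm tail. For 18 of the genes the brightest probe was not above background on any array. TEKT2 was at -5.01 with mock and at -0.02, 0.28 and -0.29 with the drugs. SPATA18 (at -6.48 and at -2.16, -2.31 and -2.20) and CRISP2 (at -6.51 and at -3.34, -3.33 and -3.28) followed it, both under the level counted. The germ cell marker DAZL was at -6.58 with mock and at 1.82, 1.59 and 1.78 with the drugs, and the endothelial marker PECAM1 was also higher with each drug, at least 8.40-fold with DAC. Of the 25 housekeeping genes none was induced, and their medians were -0.17, -0.16 and -0.29. The highest mean differences upward were those of B2M, TFRC and SNRPD3, at most 1.28-fold, and differences downward were larger, with REEP5, named after its value was seen, at 0.33 to 0.39 of mock. Among the colon epithelial markers, the brightest probes of the keratins KRT8 and KRT18 were 1.38-fold to 1.51-fold above mock, while ELF3 (0.24 to 0.27 of mock), EPCAM (0.35 to 0.36), CLDN7 (0.39 to 0.42) and CDH1 (0.42 to 0.47) were lower with every drug. These 4 were named after their values were seen, and their part in the results was not tested.

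**Figure D3:**
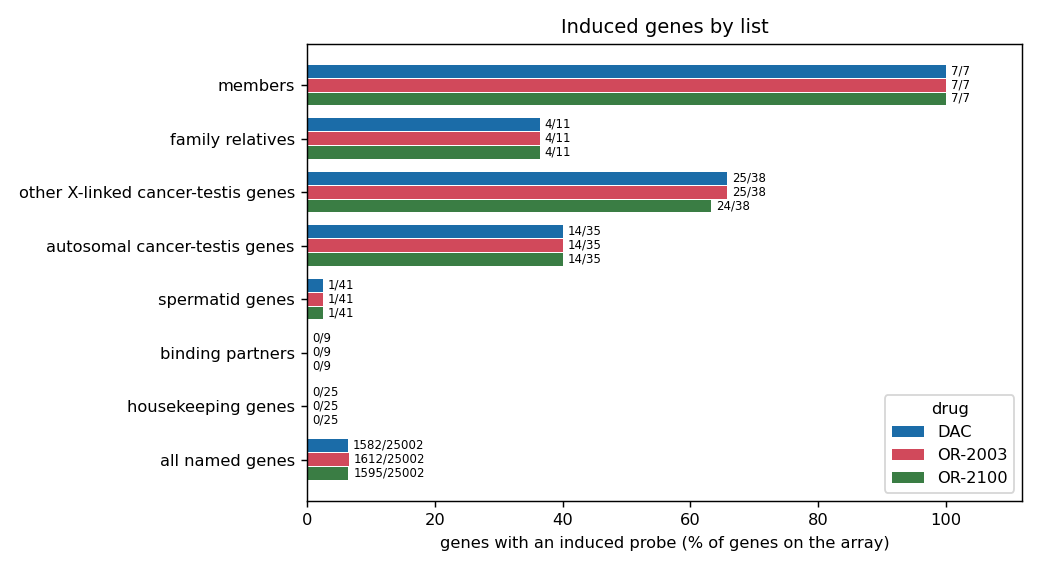
Percent of the genes of each list with a probe on the array (x axis) that had an induced probe with DAC, OR-2003 or OR-2100, with the counts at the bars. All 7 members with a probe are induced, 24 to 25 of the 38 other X-linked cancer-testis genes, 14 of the 35 autosomal ones, and none of the 9 binding partners and 25 housekeeping genes. Among all named genes the share is 6.33% to 6.45%.

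The members lie in 4 clusters on the X chromosome, and the nearest protein-coding gene with a probe on each side of a cluster was read, leaving out members, their relatives and the listed cancer-testis genes. Relatives such as SSX5 and SSX7, which lie nearer, are therefore not among them. Of these 8 neighbours, 2 were induced, each by all drugs, where 5.77% of all named genes were induced by all 3. A count among 8 genes says little. ZNF630, beside SSX1, SSX3 and SSX4, had a probe at -3.41 with mock and at -0.82, -0.65 and -0.72 with the drugs, and its second probe stayed under -3. MAGED4B, a MAGE family gene beside SSX2, was at -4.01 with mock and at 0.04, -0.08 and 0.16. On the other sides, SLC38A5 was at 1.62 with mock and at 0.93, 1.03 and 0.98 with the drugs, and FAM156B at -0.08 and at -0.61, -0.70 and -0.19. The SPANX genes lie between SOX3, which was at -4.64 with mock and at -4.01, -4.05 and -3.75, and SLITRK4, which was not above background on any array. The CTAG genes lie between IKBKG, at 1.01 with mock and at 1.37, 1.30 and 1.43 with the drugs, and GAB3, whose probe A_23_P255126 was at -3.61 with mock and 1.61 to 1.80 above that with the drugs. Its probe A_33_P3251369, not well above background with mock, was at -3.93 and 1.24 to 1.98 above that with the drugs.

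The drugs were compared at the same dose and day over 3 pairs. The differences of the 9 member probes ran from -0.24 to 0.11 for OR-2003 minus DAC, from -0.60 to 0.55 for OR-2100 minus DAC and from -0.50 to 0.55 for OR-2100 minus OR-2003, on the log2 scale. None of the 9 was 2-fold apart in any pair, where 0.105%, 0.266% and 0.547% of all probes above background on both arrays were. No interval of a difference can be given from 1 array each, so these values do not show that the drugs act alike. The spread between repeated spots of a probe on 1 array, with a median SD of 0.06, is the only error measured.

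SPANXB1, at -0.60 for OR-2100 minus DAC, and the dim SSX2 probe A_23_P252023, at 0.55, lay outside the central 95% of all probes for that pair, -0.51 to 0.52. SSX2 A_23_P252023 lay outside it for OR-2100 minus OR-2003 too. The other SSX2 probe was within 0.03 between any drugs. For SPANXA1 and SPANXC, OR-2100 minus DAC was -0.28 and -0.37. All 3 SPANX probes were highest with DAC and lowest with OR-2100, under every scaling and background correction tried except scaling by the median, where OR-2003 was below OR-2100 by 0.0052 for 1 of them. SPANXA1, SPANXB1 and SPANXC are near-identical copies that may share signal, so their order is not a repeated measurement.

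**Figure D4:**
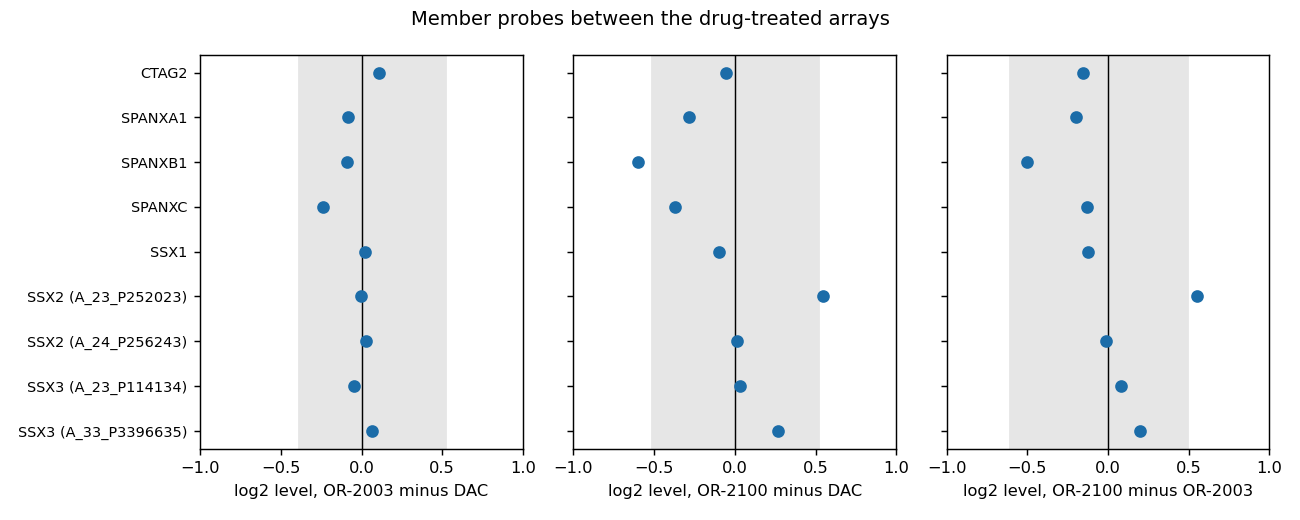
Log2 difference between the arrays of each pair of drugs (x axis) for the 9 member probes (y axis). The grey band holds the central 95% of all probes above background on both arrays, and 0, 2 and 1 member probes lie outside it from left to right.

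The genes whose 4 levels were nearest to the brightest member probe of each family, out of the named genes, were found by Euclidean distance in log2 units. Brightest means the highest mean log2 level over the 4 arrays, and for SPANX this rests on mock values in the background, since SPANXA1 was above SPANXC with every drug. For SSX2 (A_24_P256243) they were ESPNL at 0.11, NCCRP1 at 0.13 and DEFB124 at 0.15. For SPANXC they were NCR3 at 0.23, the antisense RNA B3GALT1-AS1 at 0.24 and MAGEB3, another X-linked cancer-testis gene, at 0.33. For CTAG2 they were PRR20G at 0.51, CT45A5, also of the class, at 0.59 and KRTAP3-1 at 0.69.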

How the data were processed

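RNA of mock-treated HML58-3 cells and of cells given DAC, OR-2003 or OR-2100 was hybridized to SurePrint G3 Human 8x60K v3 arrays, 1 array per condition. The authors deposited the scanner output of Feature Extraction, with the background-corrected intensity of each spot, not yet normalized between arrays. Marked spots were left out, log2 intensity was averaged per probe, and the 75th percentile of gene probes was set to 0 on each array. A probe counted as well above background where the share of its spots so marked passed 0.5. Accessions were named through a RefSeq table of GRCh38.p14, another build than that of the array, so the only coordinates given are those of the RefSeq promoter windows, in GRCh38.p14. With 1 array per condition, no test was run and the number of arrays limits the precision. A gene counted as induced where at least 1 of its probes was induced. Other values of a list, such as its median, rest on the brightest probe by mean signal. Members and lists were chosen with earlier results of these data known. Named are all probes of members, relatives, partners and nearest neighbours, the 3 genes with the highest mean difference of each other list, defining markers at background, and the 3 genes most like the brightest member probe of each family. A gene that this rule names is not reported here. The counting was tested on simulated data. Alternatives were the series table, which held the same values, normexp on the median intensity with an offset of 50, quantile normalization, 2 other scalings, background floors (1 of them added after seeing the data), marked spots, the median of spots, other thresholds and other probe rules.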

Additional observations from a re-analysis of the deposited data

How the results depend on the processing

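No paired analysis was possible because there was 1 array for each condition, which also left no replicate to drop. All differences of the member probes from mock stayed above 0 in the 9 alternative settings, 243 of 243 values. Among these settings, the series table, the median of spots and keeping marked spots left the member values unchanged or nearly so. Their share of the 243 is therefore no separate support. The size of these differences follows the background correction, both for the 6 probes with a mock signal in the background and for the other 3. The median over the member probes was 2.74, 2.70 and 2.65 for DAC, OR-2003 and OR-2100 with normexp, 5.61, 5.37 and 5.26 with the 75th percentile of bright probes (those well above background), and 5.29, 4.94 and 4.95 with scaling by the median. The lowest difference of any member probe was 1.97, that of SSX3 A_33_P3396635. The same probe was lowest with quantile normalization (1.90), the percentile of bright probes (2.17) and the median (1.81). With normexp the lowest was SSX2 A_23_P252023 with DAC, at 0.24, where its main value was 2.28. That SSX2 probe was also lowest, at 1.70, with the floor at the background limit of each array. It was again 1.70 with the floor, added after seeing the data, at the highest limit of the 4 arrays. The SPANXN5 difference for OR-2003, 1.16, was -0.00014 with normexp.

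With the percentile of bright probes, the induced member probes numbered 4, 3 and 3 and the member genes 4, 3 and 3, since all levels drop while the threshold of -1 stays. Over all 58201 gene probes the induced ones then numbered 1062, 1078 and 1103. The lists induced by all 3 drugs then held 2 relatives, 7 autosomal cancer-testis genes and 0 spermatid genes, and 0 neighbours were induced. With a level threshold of 0 they held 2, 9 and 0, and 1 neighbour was induced. The spermatid genes numbered 6 with scaling by the median and 6 with no level threshold. Between drugs, the median over members of OR-2003 minus DAC was -0.11 with scaling by the median, that of OR-2100 minus OR-2003 was 0.012, and that of OR-2100 minus DAC was 0.015 with quantile normalization. The median of all gene probes moved by 0.20 to 0.22 with the percentile of bright probes, by -0.09 to -0.22 with the median and by up to 0.23 with quantile normalization. Depth in the sense of signal over background limits SSX1, SPANXA1, SPANXB1, SPANXC and 1 probe each of SSX2 and SSX3 to lower bounds. With normexp the differences of these probes fell below those bounds.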
